A study of Mus musculus with 20 samples.

Results

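The beta cell transcription factors described here were 10 genes, Pdx1, Mafa, Nkx6-1, Nkx2-2, Neurod1, Isl1, Pax6, Rfx6, Insm1 and Foxo1, out of 26211 genes in the table of normalized read counts. They were chosen by name, as the rows whose Ensembl identifier carries one of these symbols, and each of the 10 was found. The libraries hold RNA of pancreatic islets, clusters of hormone-making cells within the pancreas, from P2Y14-knockout mice (10 libraries) and from wild-type mice (10 libraries). All 20 carry the mixed strain C57BL/6 x 129S6, and no age, sex or kind of knockout allele is labelled. P2Y14, encoded by P2ry14, is a cell surface receptor that UDP-glucose and related nucleotide sugars activate through G proteins, and the series title names insulin release as a question of the study. Islets were picked by hand after enzyme digestion and cultured overnight before RNA was taken.

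These factors act on beta cells in layers. Pdx1, Neurod1 and Mafa bind the insulin promoter together, Nkx6-1, Nkx2-2, Pax6, Isl1, Rfx6 and Insm1 set and hold the endocrine fate, and Foxo1 carries signals from insulin and from metabolic stress to the nucleus. Mafa and Nkx6-1 mark beta cells among the endocrine cells of the adult mouse islet, and Pdx1 is also made in delta cells, whereas Pax6, Isl1, Neurod1, Nkx2-2, Rfx6 and Insm1 are shared with alpha and other endocrine cells. In beta cells under lasting metabolic stress, Mafa, Nkx6-1 and Pdx1 are known to be lost early.

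The DNA letters that several of these proteins read can be followed in the promoters themselves. The 250 bases before the start of transcription are given here for Pdx1 and Neurod1, a pair of insulin gene activators, for Rfx6, the member with the strongest correlation with the acinar share of a library, and for Ins1, a gene that the factors drive. The sequences are from RefSeq on GRCm38.p6 and run 5′ to 3′ on the strand of the gene. Capitals mark TAAT, the core that homeodomain proteins bind, CANNTG, the E-box of helix-loop-helix proteins such as Neurod1, TGCTGA, part of the element that Maf proteins bind, and TGTTTA, the forkhead core, each searched on both strands. Pdx1 is at chr5:147269847-147270096 (plus strand), Neurod1 at chr2:79456637-79456886 (minus strand), Rfx6 at chr10:51685268-51685517 (plus strand) and Ins1 at chr19:52264047-52264296 (plus strand).
Pdx1: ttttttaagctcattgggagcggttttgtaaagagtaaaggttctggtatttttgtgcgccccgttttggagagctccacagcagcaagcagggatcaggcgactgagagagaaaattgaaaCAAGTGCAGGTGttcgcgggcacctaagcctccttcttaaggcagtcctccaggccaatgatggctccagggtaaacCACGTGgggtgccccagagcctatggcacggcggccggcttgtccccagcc
Neurod1: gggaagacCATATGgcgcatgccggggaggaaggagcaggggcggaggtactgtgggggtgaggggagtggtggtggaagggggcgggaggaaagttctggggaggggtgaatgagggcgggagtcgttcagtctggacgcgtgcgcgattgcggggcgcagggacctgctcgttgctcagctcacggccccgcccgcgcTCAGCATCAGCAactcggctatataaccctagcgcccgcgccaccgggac
Rfx6: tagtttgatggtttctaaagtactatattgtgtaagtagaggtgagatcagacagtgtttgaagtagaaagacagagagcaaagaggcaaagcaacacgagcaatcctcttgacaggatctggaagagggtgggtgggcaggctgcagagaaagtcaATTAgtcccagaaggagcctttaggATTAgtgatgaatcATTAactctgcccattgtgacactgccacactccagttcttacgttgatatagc
Ins1: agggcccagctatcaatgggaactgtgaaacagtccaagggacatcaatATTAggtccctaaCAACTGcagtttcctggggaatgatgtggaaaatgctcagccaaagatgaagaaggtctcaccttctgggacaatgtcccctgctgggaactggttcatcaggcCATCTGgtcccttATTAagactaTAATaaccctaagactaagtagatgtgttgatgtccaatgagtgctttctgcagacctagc

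The Pdx1 stretch held 3 E-boxes, at 128, 122 and 51 bases before the start, and none of the other letters. The Neurod1 stretch held 2 copies of TGCTGA side by side, at 50 and 44 bases before the start, and 1 E-box. The Rfx6 stretch held 3 TAAT cores, at 93, 68 and 54 bases before the start. Ins1 held 3 TAAT cores and 2 E-boxes, the letters of the homeodomain members and of Neurod1. These letters are common: of 32851 promoters of the same length, 54.9% held TAAT, 66.2% an E-box, 16.1% TGCTGA and 12.0% TGTTTA. RefSeq promoters were matched for 8 of the 10 members, at 9 start sites. A match is a description of the letters and not a measured binding site.

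Depth ranged from 34520628 reads over genes in knockout replicate 5 to 199847246 in knockout replicate 4. The least-read member, Foxo1, had at least 172 reads in each library, for which counting error is at most 7.62% of the value; this covers counting error only. P2ry14 averaged 51.2 ± 31.4 normalized counts in knockout and 151 ± 67.4 in wild-type libraries (SD, n = 10 each), and 8 of 10 knockout libraries were below the lowest wild-type one (limma's adjusted p was 0.244). The islet label was met by Ins1, Ins2 and Gcg in every library, and 10 beta cell marker genes took 13.5 to 44.1% of reads in knockout and 18.3 to 40.8% in wild-type libraries. Acinar cells, the enzyme-making cells around the islets, also left RNA: 30 acinar marker genes took 8.24 to 33.4% of reads in knockout libraries (median 24.5%) and 6.44 to 33.0% in wild-type libraries (median 22.7%). In such bulk RNA, fewer cells of a type and less RNA per cell cannot be told apart. Whether every library came from a separate animal is not labelled, so the p-values speak of the spread among these 20 samples, which may be technical.

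The members differed widely in level. Per kb of merged exons, and averaged over the 20 libraries, Pax6 stood highest at 5140 normalized counts per kb, a level 3.38-fold that of Nkx2-2 as a geometric mean ratio, and was above Nkx2-2 in 20 of 20 libraries. Pax6, a paired-domain and homeodomain factor, is needed for all islet endocrine cells. Nkx2-2 averaged 1553, Rfx6 1287, Neurod1 793 and Nkx6-1 699 normalized counts per kb. Mafa (621) and Pdx1 (584) shared the next place, Mafa being higher in 9 of 20 libraries. Their order in the mean depended on genotype. Mafa averaged 757 and Pdx1 637 in wild-type libraries (medians 630 and 664), against 486 and 531 in knockout libraries (medians 433 and 524). Nkx6-1 averaged 753 in wild-type libraries, beside Mafa, and 645 in knockout libraries. Insm1 averaged 495, Isl1 301 and Foxo1 63.5 normalized counts per kb, so that Foxo1 had the lowest level of the 10 in the mean.

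Neighbours in this order were compared within libraries by a two-sided paired permutation test of the log2 ratio, adjusted over the 9 pairs of neighbours. The order was set by the means of these same 20 libraries, so the data chose the pairs that were tested. The p-values are therefore no independent test of the order. With both genotypes pooled, Mafa and Pdx1 did not differ beyond their spread (adjusted p = 0.958). Each of the other 8 pairs did with merged exons as the length, with adjusted p of at most 0.0352. The closest of those were Nkx2-2 above Rfx6 in 16 of 20 libraries, Neurod1 above Nkx6-1 in 15 and Nkx6-1 above Mafa in 13. Taking the longest coding transcript as the length, a choice made after seeing the data, left all 10 places as they were and moved several ratios. Insm1 was then only 1.03-fold the level of Isl1, against 1.62-fold with merged exons, was above it in 11 of 20 libraries in place of 20, and no longer differed beyond the spread (adjusted p = 0.617 by the same permutation test). With that length Pax6 stood at 6.59-fold the level of Nkx2-2, and the other 7 pairs still passed.

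**Figure D1:**
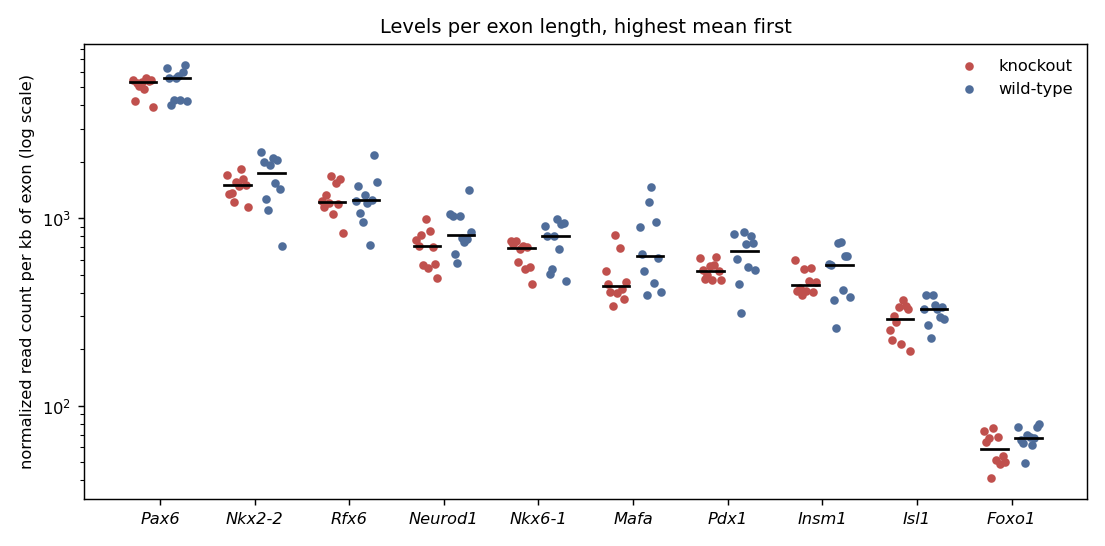
Normalized read counts per kb of merged exons on a log scale (y axis) for each of the 10 factors (x axis), with 1 point per library, knockout in red and wild-type in blue, and a black bar at the median of each genotype. Pax6 stands above all others, Mafa and Pdx1 overlap, and Foxo1 lies at the bottom at a mean of 63.5.

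The main comparison asked whether loss of P2Y14 moved the level of these factors. None of the 10 passed the test: limma on log2 of the value plus 1, with p-values adjusted by Benjamini-Hochberg over all 17482 genes tested and a threshold of 0.05, gave 0 members, where 0.28% of all genes passed. Another 2 tools on the whole reads recovered from the table gave 0 members too, edgeR with 0.246% and DESeq2 with 0.784% of all genes past the same threshold. Without adjustment, 2 of 10 members, Mafa and Neurod1, had p under 0.05, against 8.94% of all genes. The adjusted p of the members ran between 0.497 and 0.993.

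Fold changes of the members were mostly negative, without any single call. The log2 fold change of knockout over wild-type was negative for 9 of 10, against 50.4% of all genes, with a median of -0.19 over the members and -0.002 over all genes tested. The 10 genes varied together between libraries, so these are not 10 separate observations. Between 8 and 10 members lay below the median of all genes in each of the 31 alternative settings, and the sign of Rfx6 and of Pax6 flipped in some of them.

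Mafa and Neurod1, which act on the insulin promoter beside Pdx1, had the lowest fold changes. Mafa (ENSMUSG00000047591, chromosome 15), a basic leucine zipper protein of mature beta cells, had 934 to 2230 normalized counts in knockout libraries (median 1186), against 1060 to 4029 in wild-type libraries (median 1725). The groups overlapped: 4 wild-type libraries were above the highest knockout one, replicate 5, and 2 knockout libraries were below the lowest wild-type one. The log2 fold change of Mafa was -0.55 (SE 0.23, 95% interval -1.03 to -0.07), with p = 0.0274 and an adjusted p = 0.497 by limma. edgeR gave a log2 fold change of -0.65 and an adjusted p of 0.435 for Mafa, and DESeq2 -0.64 and 0.256. Over all 31 alternatives the adjusted p of Mafa ran between 0.078 and 0.695, and its log2 fold change stayed negative in each.

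Neurod1 (ENSMUSG00000034701, chromosome 2), the helix-loop-helix activator of the insulin gene, had 1313 to 2697 normalized counts in knockout libraries (median 1935), against 1578 to 3837 in wild-type libraries (median 2213). Here 4 knockout libraries were under the whole wild-type range and 4 wild-type libraries were over the whole knockout range. The log2 fold change of Neurod1 was -0.33 (SE 0.15), with p = 0.0427 and an adjusted p = 0.544 by limma. Exons of Neurod1 overlap those of Cerkl on the same strand, and Cerkl averaged 882 ± 251 normalized counts in knockout and 1081 ± 400 in wild-type (SD, n = 10 each); reads of the shared stretch cannot be told apart.

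Pdx1 (ENSMUSG00000029644, chromosome 5), the homeodomain factor without which no pancreas forms, had 1012 to 1337 normalized counts in knockout libraries (median 1130), against 671 to 1825 in wild-type libraries (median 1433). All 10 knockout libraries were below the wild-type median, yet 2 wild-type libraries lay below every knockout library, so the knockout values sat inside the wild-type range. The log2 fold change of Pdx1 was -0.21 (SE 0.15, 95% interval -0.52 to 0.10), with an adjusted p = 0.702 by limma.

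Nkx6-1 (ENSMUSG00000035187, chromosome 5), a repressor of non-beta fates that keeps beta cells secreting and dividing, had 1397 to 2375 normalized counts in knockout libraries (median 2175), against 1441 to 3082 in wild-type libraries (median 2522). Again all 10 knockout libraries were below the wild-type median, and 6 of 10 wild-type libraries exceeded the highest knockout one. Its log2 fold change was -0.19 (SE 0.15) and its adjusted p 0.724 by limma.

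Other members are shared by several endocrine cell types. Nkx2-2 (ENSMUSG00000027434, chromosome 2), a homeodomain factor without which beta cells do not form, had 3293 to 5261 normalized counts in knockout libraries (median 4287), against 2039 to 6431 in wild-type libraries (median 4977). Knockout values lay within the wild-type range, and limma gave -0.09 on the log2 scale (SE 0.17, adjusted p = 0.911). Isl1 (ENSMUSG00000042258, chromosome 13), a LIM homeodomain factor of all islet endocrine cells, had 776 to 1455 in knockout libraries (median 1142), against 904 to 1548 in wild-type libraries (median 1296). For Isl1, 3 knockout libraries were below the lowest wild-type one; limma gave -0.19 on the log2 scale (SE 0.13, adjusted p = 0.689).

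Pax6 (ENSMUSG00000027168, chromosome 2) had 45728 to 65330 normalized counts in knockout libraries (median 61895), against 46710 to 76799 in wild-type libraries (median 64817). All but 1 knockout library lay inside the wild-type range, and limma gave -0.04 on the log2 scale (SE 0.11, adjusted p = 0.949). Its 95% interval, -0.27 to 0.20, was the narrowest of the 10. Rfx6 (ENSMUSG00000019900, chromosome 10), a winged-helix factor needed for endocrine cells to form and for beta cells to keep their calcium channels, had 3331 to 6676 in knockout libraries (median 4872), against 2885 to 8691 in wild-type libraries (median 4973). Knockout values were within the wild-type range, and Rfx6 was the only member with a positive log2 fold change, 0.01 (SE 0.16; limma's adjusted p was 0.993), a sign that turned negative with TMM factors, edgeR, DESeq2, library weights and rescaling.

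Insm1 (ENSMUSG00000068154, chromosome 2), a zinc finger repressor needed for endocrine differentiation, had 1212 to 1851 normalized counts in knockout libraries (median 1364), against 804 to 2314 in wild-type libraries (median 1753). Of the wild-type libraries, 4 were above and 3 below the whole knockout range; limma gave -0.13 on the log2 scale (SE 0.16, adjusted p = 0.836). Foxo1 (ENSMUSG00000044167, chromosome 3), the forkhead factor that insulin signalling sends out of the nucleus, had 356 to 655 in knockout libraries (median 510), against 426 to 694 in wild-type libraries (median 585). For Foxo1, 2 knockout libraries were below the lowest wild-type one, and limma gave -0.21 on the log2 scale (SE 0.12, adjusted p = 0.632). Foxo1 shares chromosome 3 with P2ry14, with 34 tested genes between them in gene order.

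**Figure D2:**
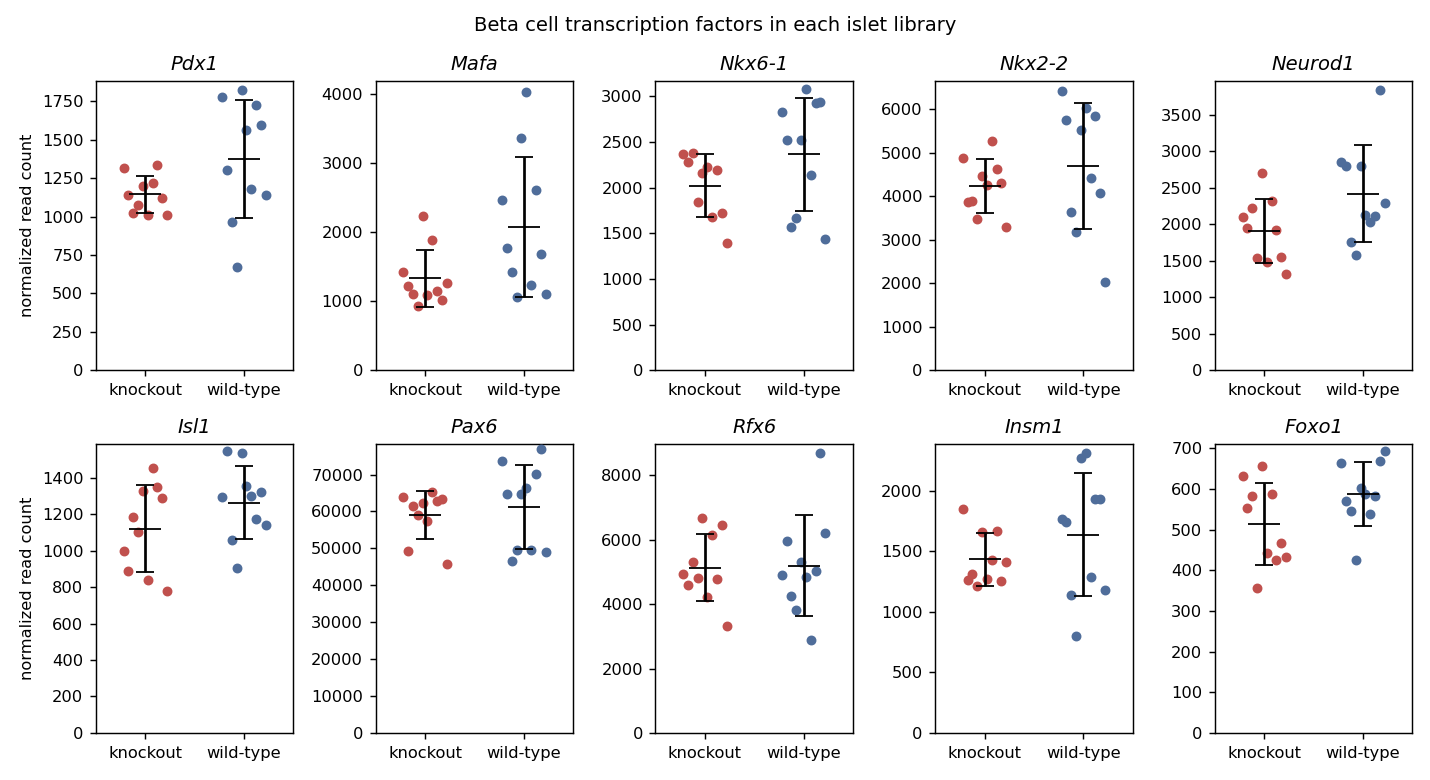
Normalized read count of each factor (y axis, from 0) in each library, with knockout in red on the left and wild-type in blue on the right of each panel; black bars are the mean and SD of 10 libraries. The genotypes overlap in all 10 panels, and the wild-type points of Mafa reach 4029 where the knockout points end at 2230.

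The spread between libraries, a pattern noticed in the data and not tested, was smaller in knockout than in wild-type islets for 8 of 10 members, against 41.7% of all genes. Over the members, the median log2 ratio of the SD of log2 values, knockout over wild-type, was -0.67, against 0.11 over all genes. Pdx1 had an SD of 0.15 in knockout and 0.46 in wild-type libraries on the log2 scale. Nkx2-2 had 0.21 in knockout and 0.52 in wild-type, and Insm1 had 0.21 in knockout and 0.50 in wild-type. Wild-type libraries 13, 14 and 20, which held 33.0, 29.7 and 20.1% acinar reads, were the 3 lowest wild-type libraries for each of these genes. Wild-type library 17, at 30.7%, was not among them, and the wild-type median share was 22.7%. A relation of this spread to the acinar share was not tested. The SD of Isl1 went the other way, with 0.32 in knockout and 0.24 in wild-type, as did that of Foxo1, with 0.29 and 0.20. Leaving out any 1 library gave 7 or 8 such members, and rescaling to reads outside the acinar markers gave 8.

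**Figure D3:**
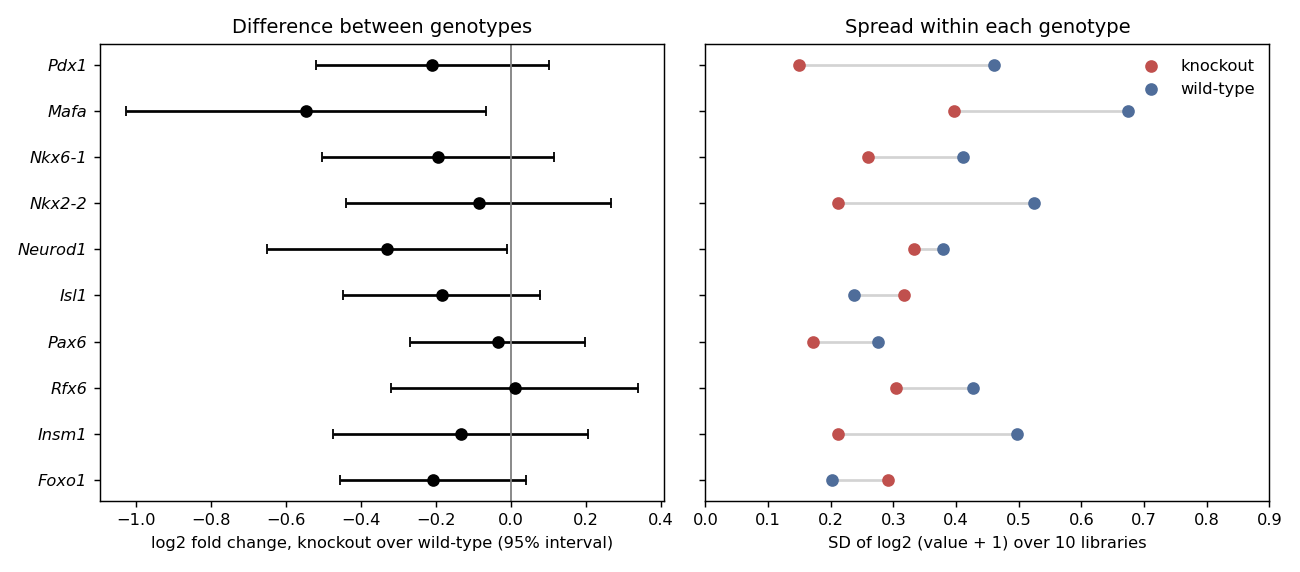
Left, the log2 fold change of knockout over wild-type (x axis) for each factor (y axis), with 95% intervals from limma; right, the SD of log2 values over the 10 libraries of each genotype, knockout in red and wild-type in blue. The intervals of Mafa and Neurod1 end just below 0 before adjustment, and for 8 of 10 factors the red point lies left of the blue one.

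The members moved together from library to library. With the mean of each genotype subtracted, all 45 pairs had a positive Pearson correlation over the 20 libraries, between 0.10 and 0.92 with a median of 0.57. By a two-sided permutation test adjusted over the 45 pairs, 33 passed 0.05 with Pearson's r and 28 with Spearman's rho. The lowest r that passed was 0.45, and 34 of the 45 pairs reached it, against 14.2% of the pairs of a member with a gene of a mean of at least 100 that is no member; 50.6% of those pairs were positive. This background depends on the scaling. After rescaling to reads outside the acinar markers, all 45 pairs passed, the lowest at r = 0.59, where 46.1% of the pairs with other genes reached that r and 84.8% were positive. A member's median r with the 12362 genes of that level was between -0.01 and 0.02 with the authors' scaling and between 0.44 and 0.63 after rescaling. Libraries share depth, cell makeup and handling across genes, and all pairs have these in common.

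Pdx1 and Insm1 formed the closest pair, with r = 0.92 and rho = 0.87 (permutation p adjusted to 0.00045 and 0.00135). Their r was 0.77 within knockout and 0.94 within wild-type libraries, 0.84 without the 2 libraries farthest from the median of Pdx1, and 0.86 to 0.93 with each library left out. Mafa and Insm1 followed, with r = 0.82 and rho = 0.85 (adjusted p = 0.00202 and 0.00135), and r = 0.74 without the 2 farthest libraries. Mafa and Insm1 had r = 0.58 within knockout and 0.88 within wild-type libraries.

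A second group lay around Neurod1. Neurod1 and Foxo1 had r = 0.76 and rho = 0.77 (permutation p adjusted to 0.00225 for both), with r = 0.82 within knockout, 0.74 within wild-type and 0.73 without the 2 farthest libraries. Neurod1 and Rfx6 had r = 0.73 and rho = 0.72 (adjusted p = 0.0045 and 0.00495), with 0.68 within knockout, 0.77 within wild-type and 0.61 without the 2 farthest libraries. In contrast, Nkx2-2 and Rfx6 had r = 0.10 and rho = 0.28 (adjusted p = 0.726 and 0.272), the lowest r of the 45. That value depended on single libraries: with each left out in turn it ran between 0.01 and 0.35, and it was 0.62 within knockout and -0.05 within wild-type libraries. The groups were not sharply apart. Neurod1 also had r = 0.67 with Pax6, 0.62 with Pdx1 and 0.59 with Insm1. With Nkx6-1, Mafa and Nkx2-2 it had 0.55, 0.45 and 0.37, and Rfx6 and Foxo1 had r = 0.54. The grouping was read from the matrix after it was seen and was not tested.

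**Figure D4:**
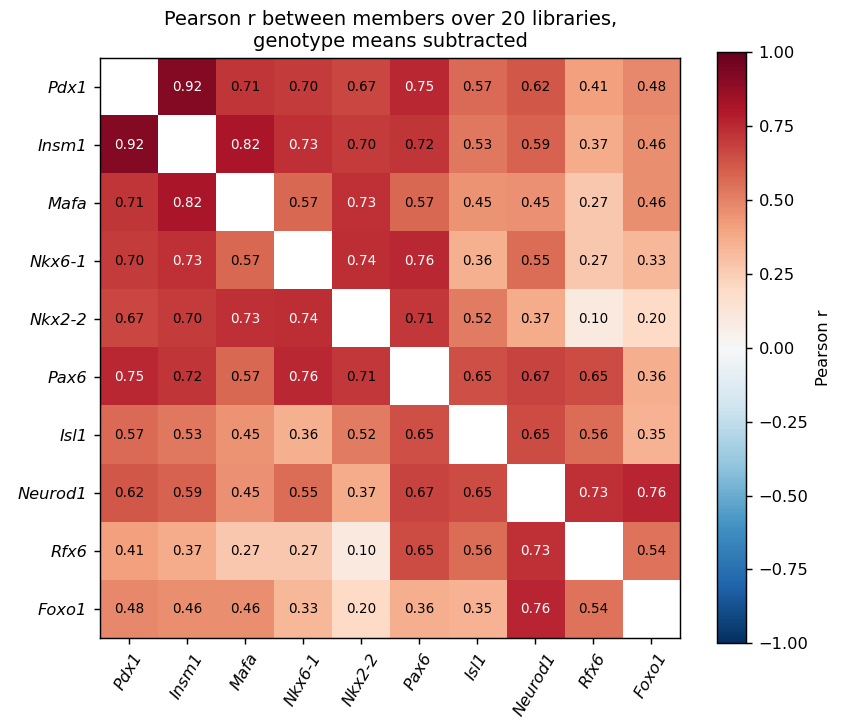
Pearson r of log2 values between the 10 factors (both axes) over 20 libraries, with genotype means subtracted, red for positive. Pdx1, Insm1, Mafa, Nkx6-1, Nkx2-2 and Pax6 form a block with r of 0.57 to 0.92. Neurod1 is closest to Foxo1 at 0.76 and Rfx6 at 0.73. Its r with genes of the block runs from 0.37 with Nkx2-2 to 0.67 with Pax6.

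The members were also related to the acinar RNA of a preparation. Each of the 10 had a negative r between its log2 value and the acinar share, over the 20 libraries and within each genotype. Of the 17442 tested genes outside the members and the acinar markers, 53.5% had a negative r over the 20 libraries. By the two-sided permutation test adjusted over the 10 members, 5 passed 0.05, each with r of -0.53 or lower, a range that held 4.98% of those other genes. Rfx6 had r = -0.71 and rho = -0.77 (adjusted p = 0.0032 and 0.0016), with r = -0.73 within knockout and -0.72 within wild-type libraries. Isl1 had r = -0.63 and rho = -0.65 (adjusted p = 0.0148 and 0.0123), with -0.58 within knockout and -0.76 within wild-type libraries.

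Pax6 had r = -0.59 and rho = -0.59 (adjusted p = 0.0182 and 0.0185), and Neurod1 had r = -0.58 and rho = -0.59 with the same adjusted p. Insm1 had r = -0.53 and rho = -0.49 (adjusted p = 0.033 and 0.0522) and passed with r alone. Pdx1 had r = -0.44 and rho = -0.57 (adjusted p = 0.0857 and 0.0198) and passed with rho alone. Foxo1 (r = -0.38), Mafa (-0.35), Nkx6-1 (-0.32) and Nkx2-2 (-0.28) passed with neither. Without wild-type library 12 and knockout replicate 5, the 2 farthest from the median share, 2 members passed, Rfx6 at r = -0.69 (adjusted p = 0.0097) and Pax6 at r = -0.62 (adjusted p = 0.0363). The r of Isl1 was then -0.57 (adjusted p = 0.0509), of Neurod1 -0.49 (adjusted p = 0.0586) and of Insm1 -0.53 (adjusted p = 0.0547). The r of Insm1 was thus nearly the same on 18 libraries as on 20. With the share regressed out, an alternative chosen after seeing the data, the median r of the 45 pairs was 0.42.

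**Figure D5:**
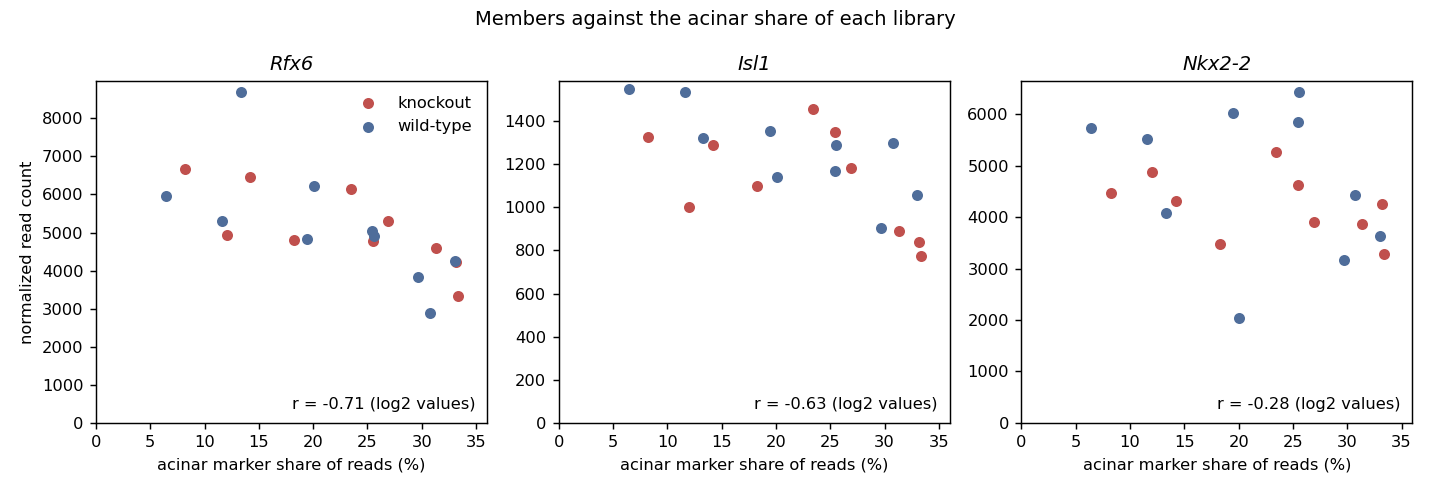
Normalized read count (y axis, from 0) of Rfx6, Isl1 and Nkx2-2 against the share of reads in 30 acinar marker genes (x axis, percent), 1 point per library, knockout in red and wild-type in blue. Rfx6 and Isl1 decline with the share in both genotypes, whereas Nkx2-2 scatters, with r = -0.28.

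For each member, the 3 genes with the most similar pattern over the 20 libraries were taken, out of the 12362 genes whose mean reached 100, with genotype means subtracted. These are descriptions of likeness and carry no p. Nkx6-1 was closest to Ptprn2, a secretory granule protein and diabetes autoantigen (r = 0.94), then to Maml3 (0.94) and Abat (0.92). Nkx2-2 was closest to its antisense neighbour Nkx2-2os (r = 0.92), and then to Vamp2, a granule fusion protein (0.91), and Cplx2 (0.89). The exons of Nkx2-2 and Nkx2-2os overlap on opposite strands and the library kit does not mark strand, so reads of the shared stretch cannot be told apart.

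Pdx1 was closest to Insm1 (r = 0.92), Zbtb4 (0.82) and Casr (0.82), and Insm1 to Pdx1 (0.92), Zbtb4 (0.85) and Ank (0.85). Mafa was closest to Tbc1d22b (0.82), Insm1 (0.82) and Fbxo21 (0.81). Neurod1 was closest to Zfp334 (0.90), Srpk2 (0.90) and Baz1b (0.90). Pdx1, Mafa and Insm1 thus shared partners among themselves. The 3 nearest genes of Neurod1, and of each of the remaining members, included no other member.

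Pax6 was closest to Tmem215 (0.90), Zfp608 (0.88) and Chgb, a granin of secretory granules (0.87). Rfx6 was closest to Slc16a12 (0.89), Pex5l (0.89) and Ccnt2 (0.89). Isl1 was closest to Sepsecs (0.83), Nipa1 (0.83) and Tspan2 (0.81), and Foxo1 to Nufip2 (0.81), Il1r1 (0.81) and Zkscan1 (0.81). No gene here stood among the 3 nearest of 2 members other than Insm1 and Zbtb4.

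Beta cell genes listed as bound or driven by the factors had negative fold changes more often than positive ones, with none past the test. Of 32 such genes, all tested, 0 passed in either direction with limma, where 0.28% of all genes passed. Of these 32, 7 had an unadjusted p under 0.05, against 8.94% of all genes. A negative log2 fold change was found for 26, against 50.4% of all genes, and the median was -0.14 against -0.002 over all genes. Of the 10 beta cell markers, partly the same genes, 6 were negative with a median of -0.16, 3 had an unadjusted p under 0.05 and 0 passed. The smallest p belonged to Cacna1c, a calcium channel subunit, at 3020 ± 1114 normalized counts in knockout and 4416 ± 1642 in wild-type (SD, n = 10 each; log2 fold change -0.55, adjusted p = 0.47). Papss2, a sulfate donor enzyme, followed with 4992 ± 941 in knockout and 6660 ± 1891 in wild-type (log2 fold change -0.38, adjusted p = 0.479). Trpm5, a cation channel of beta cells, had 8135 ± 3040 in knockout and 11274 ± 3093 in wild-type (log2 fold change -0.54, adjusted p = 0.503).

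Slc2a2, the glucose transporter GLUT2 and a target of Pdx1 and Nkx6-1, had 5840 to 14739 normalized counts in knockout libraries (median 9500), against 6008 to 20324 in wild-type libraries (median 13146). In 9 of 10 knockout libraries it was below the wild-type mean, and limma gave -0.42 on the log2 scale (SE 0.19, adjusted p = 0.541). Across libraries Slc2a2 varied with Nkx6-1 (r = 0.88), Nkx2-2 (0.78) and Pax6 (0.68), and hardly with Rfx6 (0.06) or Foxo1 (0.05). Its r with Pdx1 was 0.46. G6pc2, an islet glucose-6-phosphatase, had its highest r with Rfx6 (0.78), and Glp1r, the GLP-1 receptor, with Nkx2-2 (0.77).

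Ins1 and Ins2 encode the insulin that Pdx1, Neurod1 and Mafa help to switch on. The r of Ins2 with the members lay between -0.44 and -0.02, the lowest with Neurod1. That of Ins1 had both signs, from -0.38 with Foxo1 to 0.22 with Nkx2-2. Ins1 averaged 1259280 normalized counts in knockout and 1152010 in wild-type libraries, which limma put at 0.10 on the log2 scale (adjusted p = 0.915), and Ins2 was at 0.16 (adjusted p = 0.940), signs that turned negative on rescaling to reads outside the acinar markers, and for Ins2 with quantile normalization too. Ucn3, a peptide of mature beta cells, averaged 4109 ± 1157 in knockout and 4114 ± 1273 in wild-type (SD, n = 10 each), with an adjusted p = 0.997 by limma.

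Among 49 other islet and pancreas transcription factors and cofactors, 46 were in the table and 40 were tested. With limma 0 passed, 6 had an unadjusted p under 0.05, 34 were negative and 6 positive, and the median log2 fold change was -0.21. Over all genes tested, 0.28% passed, 8.94% had an unadjusted p under 0.05 and 50.4% were negative.

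Irx1 and Irx2, which are alpha cell factors in the adult mouse, had log2 fold changes of -0.65 (adjusted p = 0.338) and -0.56 (adjusted p = 0.376) by limma. Of 9 alpha cell markers tested, 6 were negative with a median log2 fold change of -0.56 and 0 passed, with 5 at an unadjusted p under 0.05. The shares over all genes were 50.4% negative, 0.28% passing and 8.94% with an unadjusted p under 0.05. The 10 alpha markers together took 0.476 to 1.92% of reads in knockout and 1.06 to 3.09% in wild-type libraries, and Gcg was above 0 in all 20. Of 9 delta and PP cell markers, which took 0.118 to 0.686% of reads in knockout and 0.221 to 0.483% in wild-type libraries, 8 were negative with a median of -0.54 and 2 passed by limma. Edn3, the peptide endothelin-3, fell to 571 ± 242 normalized counts in knockout, against 1602 ± 358 in wild-type (SD, n = 10 each; adjusted p = 0.000525). Ptprz1, a receptor phosphatase, fell to 156 ± 52.1 in knockout, against 322 ± 110 in wild-type (adjusted p = 0.0366), a call it lost in 16 of 31 alternatives. The part of these cell types in the values of the members they share was not tested.

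Limma gave Hnf4a -0.17 on the log2 scale (adjusted p = 0.710) and Foxa2, a pioneer factor upstream of Pdx1, 0.06 (adjusted p = 0.887, negative on rescaling). Neurog3, the endocrine progenitor factor, averaged 63.6 ± 21.2 in knockout and 70.5 ± 13.1 in wild-type (SD, n = 10 each; adjusted p = 0.805). Pax4 was at 0 in all 10 knockout libraries and, at 8.36 normalized counts, above 0 in 1 of 10 wild-type libraries, and it was not tested.

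Genes of immature or dedifferentiated beta cells had positive fold changes more often. Of 16, 14 were tested, 10 were positive and 4 negative, with a median log2 fold change of 0.19. With limma 0 passed and 2 had an unadjusted p under 0.05. Among all genes, 50.4% were negative, 0.28% passed and 8.94% had an unadjusted p under 0.05. Of 7 acinar and duct transcription factors, 6 were positive with a median of 0.13 and 0 had an unadjusted p under 0.05, beside 25 of 30 acinar markers positive with the same median of 0.13 and 0 passing.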

How the data were processed

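Per the labels' protocols, cDNA libraries came from Illumina's TruSeq RNA v2 chemistry, in which strand is not kept. The deposited table holds a signal unit, the read count of a gene scaled by the authors with a library size factor, for which the submitters' processing notes name DESeq 1.16.0. The mm9 build, Cufflinks 1.3.0, Bowtie 0.9.9, TopHat 1.3.3 and FastQC are in those notes too, with the read counter and annotation not given in the sources used here. Dividing each column by its smallest step brought back whole reads, within a tolerance of 0.05 reads, for 100% of values above 0. Names and exon lengths came from GENCODE M21 and promoters from RefSeq on GRCm38.p6, so no coordinates of the authors' build are printed.

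Genes with a mean of at least 10 (17482) were tested with limma 3.58.1 in R 4.3.3 (lmFit, then eBayes with trend = TRUE) after adding a pseudocount of 1 and taking log2, a scale that understates changes of low genes. Correlations and ratios were tested in Python 3.11.15 with numpy 2.4.6 and 100000 permutations, two-sided. The alternatives were other pseudocounts, filters and scalings, library weights, an acinar covariate, leaving out each library, and 2 count tests on the whole reads, DESeq2 1.42.0 and edgeR 4.0.16. The limma fit was also run on simulated data with known changes. Its outcome is not reported here, so it says nothing on how small a change of the members could be found. The members, the lists and the rule for named genes were chosen with earlier results of these data known. That rule took the 10 members, P2ry14, a few fixed factors and targets, from each list described the genes past the threshold and up to 3 with the smallest p, and 3 like genes per member. The names of the other genes given with values were chosen after those values were seen. Markers of duct, endothelial, mesenchymal, macrophage, lymphocyte and Schwann cells and early response genes were summarised too. In these 7 lists 0 genes passed, where 0.28% of all genes did. Their median log2 fold changes were 0.16, -0.02, 0.11, 0.46, 0.09, 0.15 and 0.11 in that order. Some planned results are not reported here.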

Additional observations from a re-analysis of the deposited data

How the results depend on the processing

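In none of the 31 alternatives did any of the 10 factors pass the threshold; between 0 and 4 had an unadjusted p under 0.05. The median log2 fold change of the members ran between -0.37 and -0.17 over 11 other settings and between -0.24 and -0.14 with each library left out. Rescaling to reads outside the acinar markers moved the median of all genes to -0.18, and 9 of 10 members then lay below that median, at a median of -0.37. The log2 fold change of Rfx6 turned negative with TMM factors (-0.0042), rescaling (-0.17), library weights (-0.0061), edgeR (-0.019) and DESeq2 (-0.019), and ran between -0.078 and 0.099 with each library left out. That of Pax6 ran between -0.076 and 0.0042 with each library left out. Ucn3 turned negative with TMM factors (-0.0094), rescaling (-0.18), edgeR (-0.0064) and DESeq2 (-0.0022), and ran between -0.078 and 0.088 with each library left out. Rescaling also turned Foxa2 (-0.12), Ins1 (-0.079) and Ins2 (-0.025), and quantile normalization turned Ins2 (-0.40). Members correlated with the acinar share numbered 10 after rescaling and 2 without the 2 farthest libraries, against 5. The share of other genes so correlated was not computed for these 2 alternatives, so the count of 10 cannot be read as a trait of the members. Rescaling shifted genes in general: 84.8% of the pairs of a member with another gene were then positive, against 50.6% before. The median r of the pairs was 0.84 after rescaling, 0.42 with the acinar share regressed out, and 0.51 to 0.61 with each library left out. Over all genes, 49 passed with limma, 29 with a mean of at least 100, 163 with library weights, 137 with DESeq2, and 27 to 74 with each library left out (27 without knockout replicate 4, 74 without replicate 6). P2ry14 passed with DESeq2 (adjusted p = 0.0144) and without knockout replicate 5 (0.0283). The cause of these shifts was not tested. No paired analysis was possible because the wild-type columns carry numbers that match no knockout column. With 10 libraries a group, the 95% interval of Mafa, which is not adjusted for the number of genes, reached from 0.49-fold to 0.95-fold. It lay below no change, while the adjusted p of Mafa was 0.497 by limma. The interval of Pdx1 reached from 0.70-fold to 1.07-fold and included no change. The size of a change inside such ranges was not resolved.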
